A study of Homo sapiens with 9 samples.

Results

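The SHROOM family comprises 4 human genes, SHROOM1, SHROOM2, SHROOM3 and SHROOM4, and its transcripts were examined in HEK293T, a line derived from human embryonic kidney and carrying SV40 large T antigen, with and without a genomic reporter that holds an expanded CAG repeat. Members were taken by symbol and matched to Ensembl identifiers, and all 4 were found among the 60683 gene identifiers counted. The family was chosen by its CPM (its counts scaled to the total gene counts of a library) in these same libraries, because SHROOM2 had been seen to be higher in both reporter clones and SHROOM4 to differ in opposite directions. Hence the differences between groups in the 4 genes are described here and not tested. Total RNA depleted of ribosomal RNA was sequenced from 9 libraries, 3 each of parental cells, clone 15 and clone 37. The parental cells held no reporter construct. Both clones, 15 and 37, were grown, each from a single sorted cell after piggyBac transposition had inserted a construct with an ATG start, 60 CAG units, a Myc tag and NanoLuc luciferase, along with a matching construct with 0 CAG units and firefly luciferase. By the labels both inserted constructs were expressed at a low level in clone 15 and at a high level in clone 37. A single clone stood for each level, and the clone 15 libraries were read at 100 bases and all others at 75 bases, so the reporter level, the clone and, for clone 15, the read length cannot be told apart. Nothing in the labels says whether replicates were separate cultures, so their spread may be technical.

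SHROOM proteins are adaptors of the actin cytoskeleton. They bind filamentous actin, and through a conserved C-terminal domain they recruit kinases of the ROCK1 and ROCK2 type, which activate non-muscle myosin II and let an epithelial cell contract its apical side. SHROOM3 is known for its role in neural tube closure and in the kidney glomerulus, SHROOM2 for cell junctions and pigment granule position, and SHROOM4, on the X chromosome, for its link to X-linked intellectual disability. SHROOM1 is the member that lacks the N-terminal PDZ domain found in the others.

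Gene counts summed to 10334090 to 13902872 in the parental and clone 37 libraries and to 18654063 to 38093340 in clone 15. Parental replicate 2 stood apart from the other parental libraries: the chi-square of its counts against theirs was 10.2 and 10.3 per degree of freedom, against 1.88 between parental replicates 1 and 3, 1.68 to 1.83 within clone 37 and 4.24 to 9.05 within the deeper clone 15 libraries. The differences of the SHROOM genes from parental are therefore also given without it. Of the markers listed for HEK293 cells, PAX2, EYA1, NEFL, NEFM and INA were detected in every library, at 4.37 CPM or more. Of the mature kidney markers, UMOD and AQP2 had 0 counts throughout and NPHS1 and SLC34A1 stayed at or below 0.365 CPM. Among markers of other cell types CD3E and KRT5 had 0 counts, PTPRC, PECAM1 and ALB stayed at or below 0.290 CPM, and COL1A1 was present at 18.4 to 108 CPM.

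SHROOM2 was about 5-fold higher in both clones than in parental cells. It had 5.46, 4.24 and 5.20 CPM in parental replicates 1, 2 and 3, which rest on 59, 59 and 68 counts. It had 23.6, 25.4 and 22.3 CPM in clone 15 and 25.4, 25.4 and 26.6 CPM in clone 37. Every clone library lay above every parental library, and the libraries of the clones overlapped each other. The ratio of mean CPM was 4.78 in clone 15 and 5.19 in clone 37, and the fitted log2 fold changes were 2.24 (SE 0.13) and 2.36 (SE 0.12). Without parental replicate 2 they were 2.15 and 2.25. Between the clones the fitted difference was 0.12 (SE 0.08), clone 37 over clone 15. Ranked from the largest increase, SHROOM2 stood at place 58 of 16501 tested genes in clone 37 and at place 132 of 17703 in clone 15. Since the gene was chosen on these contrasts, the places are a description only.

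SHROOM4 was the member whose level separated all 3 groups. It had 17, 32 and 14 counts in the parental libraries, which are 1.57, 2.30 and 1.07 CPM. Clone 15 had 524, 352 and 283 counts, or 13.8, 14.3 and 15.2 CPM. Each clone 37 library had 0 counts, which at its depth allows up to 0.274, 0.290 and 0.243 CPM if 3 counts are taken as the floor. Clone 15 thus lay above parental cells in every library and clone 37 below them in every library. In clone 15 the ratio of mean CPM was 8.74 and the fitted log2 fold change 3.07 (SE 0.20), or 3.45 without parental replicate 2. The ratio of pooled counts was 8.54. Against the floor of 3 counts per library, SHROOM4 was at least 6.13-fold lower in clone 37 than in parental cells and at least 53.5-fold lower than in clone 15. On the log2 scale the bound against parental cells was -2.62, and -2.297 without parental replicate 2. The coefficient of variation was 37.5% in parental cells, where replicate 2 held 32 of the 63 counts, and 4.96% in clone 15.

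SHROOM1 and SHROOM3 differed less: clone 15 lay above parental cells in both genes, and clone 37 overlapped parental cells. SHROOM1 had 15.1, 12.2 and 14.4 CPM in parental cells, 20.6, 25.7 and 24.8 CPM in clone 15 and 15.6, 11.5 and 13.9 CPM in clone 37. Against parental its fitted log2 difference was 0.74 for clone 15 (SE 0.12) and -0.04 for clone 37 (SE 0.13), or 0.67 and -0.13 without parental replicate 2. SHROOM3 had 48.8, 52.6 and 50.6 CPM in parental cells, 60.5, 61.6 and 64.4 CPM in clone 15 and 49.6, 46.4 and 44.9 CPM in clone 37. The fitted log2 difference was 0.26 for clone 15 (SE 0.09) and -0.14 for clone 37 (SE 0.07), or 0.31 and -0.11 without parental replicate 2. Between the clones, clone 37 was lower by 0.78 (SE 0.11) for SHROOM1 and by 0.40 (SE 0.07) for SHROOM3 on the log2 scale, and the libraries did not overlap.

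Across the family, all 4 genes were higher in clone 15 without overlap with parental cells, where 31.5% of tested genes were higher and 28.0% lower without overlap. In clone 37, 2 of the 4 did not overlap parental cells, SHROOM2 above and SHROOM4 below, against 61.7% of tested genes in either direction and 33.1% above. Between the clones 3 of the 4, all but SHROOM2, were lower in clone 37 without overlap, against 32.1% of tested genes lower and 63.5% in either direction. Nothing is read from these counts, since the same contrasts chose the family.

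**Figure D1:**
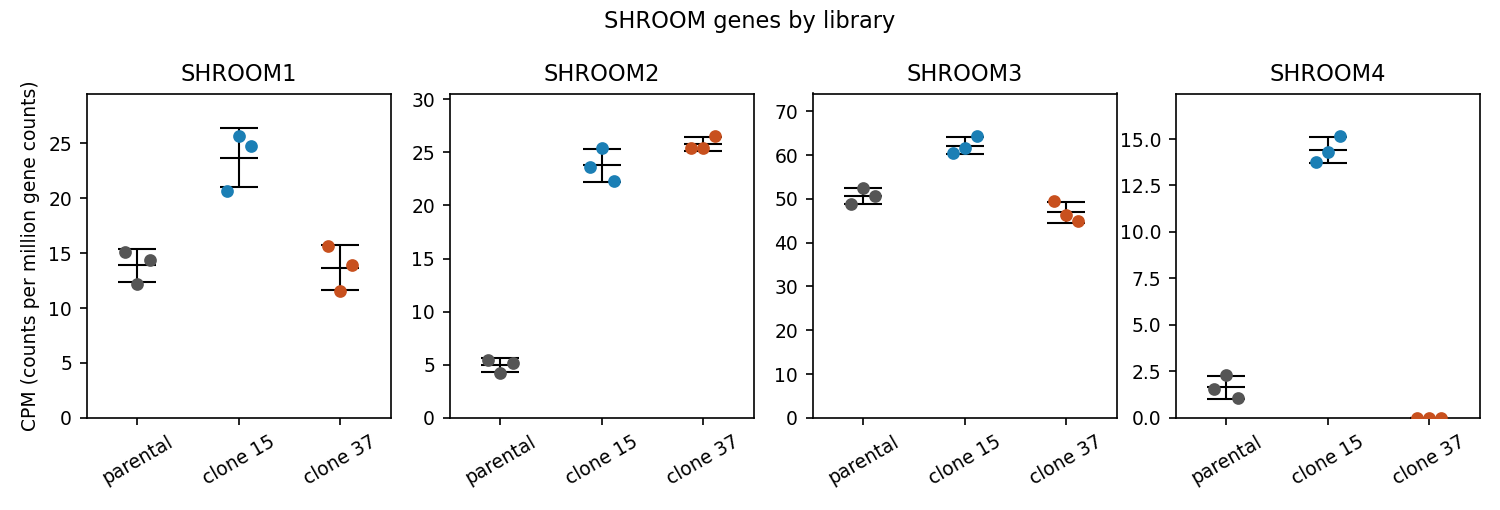
CPM of each SHROOM gene (vertical axis, linear, from 0, with its own scale for each gene) in parental, clone 15 and clone 37 libraries. Points are libraries and bars show the mean and SD of 3 libraries. SHROOM2 lies at 4.24 to 5.46 CPM in parental cells and at 22.3 CPM or more in both clones, while SHROOM4 is at 13.8 to 15.2 CPM in clone 15 and 0 in clone 37.

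Levels of different genes were compared per length, as RPKM (CPM per kilobase of the longest GENCODE transcript). In parental cells the order was SHROOM3 at 4.60 ± 0.174 RPKM, SHROOM1 at 3.45 ± 0.380, SHROOM2 at 0.667 ± 0.0860 and SHROOM4 at 0.173 ± 0.0647 (SD, n = 3), with no overlap between neighbours in that order. In clone 15 SHROOM1 at 5.89 ± 0.668 RPKM and SHROOM3 at 5.64 ± 0.182 overlapped, and SHROOM2 at 3.19 ± 0.210 and SHROOM4 at 1.51 ± 0.0748 followed (SD, n = 3). In clone 37 SHROOM3 led at 4.26 ± 0.216 RPKM, and SHROOM2 at 3.46 ± 0.0883 lay within the spread of SHROOM1 at 3.41 ± 0.513 (SD, n = 3). SHROOM2 thus made up 7.49% ± 0.770 of the summed SHROOM level per length in parental cells, 19.7% ± 1.45 in clone 15 and 31.2% ± 2.00 in clone 37 (SD, n = 3). The share of SHROOM4 was 1.95% ± 0.785 in parental cells and 9.29% ± 0.381 in clone 15 (SD, n = 3). The sum of the 4 genes was 8.89 ± 0.248 RPKM in parental cells, 16.2 ± 0.882 in clone 15 and 11.1 ± 0.652 in clone 37 (SD, n = 3).

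**Figure D2:**
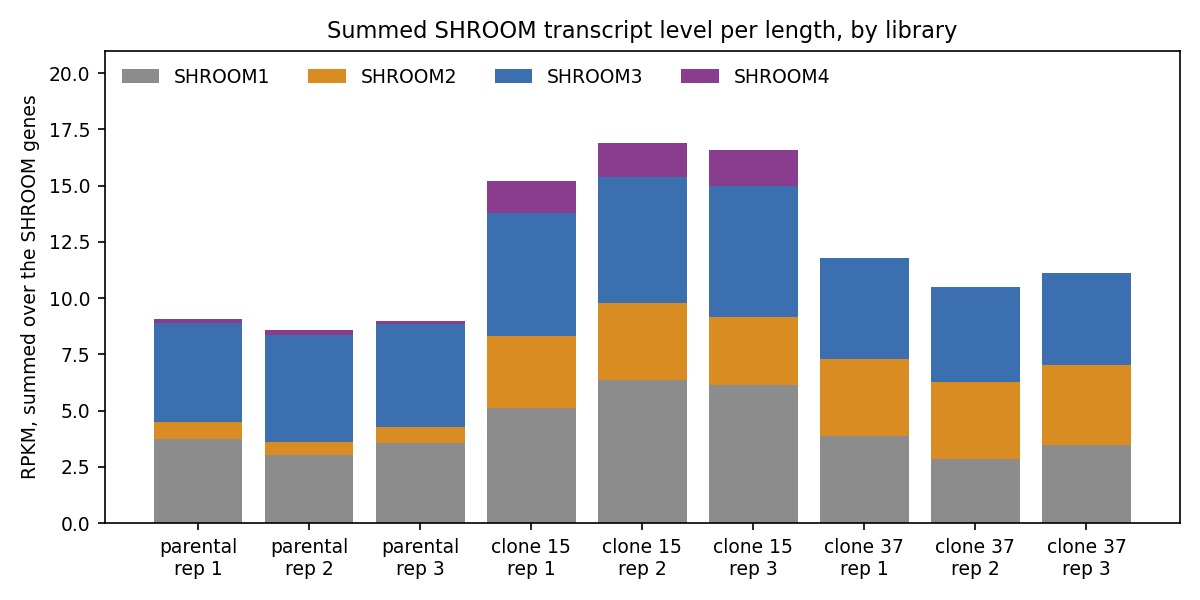
RPKM of the 4 SHROOM genes stacked for each of the 9 libraries (vertical axis, linear, from 0). The stack reaches 8.61 to 9.07 in parental cells, 15.2 to 16.9 in clone 15 and 10.5 to 11.8 in clone 37, where SHROOM4 is absent from the stack.

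By GENCODE 29 on GRCh38, SHROOM2 (ENSG00000146950) spans chrX:9786456-9949443 on the plus strand and SHROOM4 (ENSG00000158352) spans chrX:50591647-50814302 on the minus strand. SHROOM1 (ENSG00000164403) spans chr5:132822141-132830898 on the minus strand and SHROOM3 (ENSG00000138771) spans chr4:76435100-76783253 on the plus strand. The counts are of reads in annotated exons of each gene as a whole and do not tell transcripts or starts apart. Of the 75-base words in the longest transcript, 0% in SHROOM2, SHROOM3 and SHROOM4 and 1.19% in SHROOM1 also occur in a transcript of another gene. Reads on the opposite strand were at most 6 in any member and library. Unstranded counting lowered SHROOM3 by 14.5% to 17.1%, and in each library the lost reads matched, within 2 counts, the reads that became ambiguous with its antisense neighbour SHROOM3-AS1.

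RefSeq starts on GRCh38.p14 were matched for SHROOM1, SHROOM3 and SHROOM4. None was matched for SHROOM2. The 250 bases before a start of each of the 3 genes are shown as a description, and no link between these windows and the expression levels was tested. Each is written 5′ to 3′ on the gene's strand, with every CG dinucleotide in capitals, for SHROOM4 (chrX:50643673-50643922, minus strand), SHROOM3 (chr4:76434979-76435228, plus strand) and the upstream of 2 starts of SHROOM1 (chr5:132830648-132830897, minus strand).
SHROOM4: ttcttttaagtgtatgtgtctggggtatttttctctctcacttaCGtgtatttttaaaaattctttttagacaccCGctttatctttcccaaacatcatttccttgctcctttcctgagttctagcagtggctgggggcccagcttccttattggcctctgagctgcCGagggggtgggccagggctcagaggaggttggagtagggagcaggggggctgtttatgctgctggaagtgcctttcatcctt
SHROOM3: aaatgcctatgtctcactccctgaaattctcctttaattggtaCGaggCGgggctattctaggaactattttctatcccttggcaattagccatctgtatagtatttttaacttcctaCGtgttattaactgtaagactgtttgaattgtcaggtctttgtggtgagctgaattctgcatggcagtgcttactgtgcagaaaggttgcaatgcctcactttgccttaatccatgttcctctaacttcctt
SHROOM1: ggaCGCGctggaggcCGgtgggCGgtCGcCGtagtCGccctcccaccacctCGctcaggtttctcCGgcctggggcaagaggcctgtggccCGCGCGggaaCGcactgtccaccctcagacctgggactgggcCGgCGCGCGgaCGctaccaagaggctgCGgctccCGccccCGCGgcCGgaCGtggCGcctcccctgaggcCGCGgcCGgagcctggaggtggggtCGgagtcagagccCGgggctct
The SHROOM4 and SHROOM3 windows hold 3 CG dinucleotides each and the SHROOM1 window holds 30, where the median of 35116 such windows is 11. The other SHROOM1 start, chr5:132826311-132826560, has 2, so the count depends on the start taken. All these starts lie inside the spans that GENCODE gives the genes, so the windows for SHROOM4 and SHROOM1 lie within the gene and that for SHROOM3 in part. On its strand the SHROOM4 span begins at chrX:50814302, so the start shown is an internal one and may not be the main one. On either strand the letters CCAAT occur in the SHROOM4 and SHROOM3 windows, as in 32.0% of all windows, and GGGCGG, the GC box, occurs in the SHROOM1 window, as in 42.6% of all windows. TATAAA, found in 10.7% of all windows, and CACGTG, found in 6.34%, occur in none of the 3. Matches describe letters only.

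Both X-linked members were set beside their neighbours on the chromosome. Around SHROOM2, the nearest tested protein-coding genes moved differently on its 2 sides. WWC3 (chrX:10015562-10144478), a WW-domain protein, rose from 2.64 ± 0.173 to 10.6 ± 0.590 CPM in clone 37, by 1.98 on the log2 scale (SE 0.16, edgeR adjusted p 2.06e-08). It rose to 4.06 ± 0.648 CPM in clone 15, by 0.58 (SE 0.22, adjusted p 0.0296; SD, n = 3). TBL1X (chrX:9463295-9741037), a subunit of corepressor complexes, fell from 161 ± 3.74 to 147 ± 3.37 CPM in clone 37, a change of -0.15 (SE 0.06, adjusted p 0.0264). It fell to 74.6 ± 1.71 CPM in clone 15, a change of -1.14 (SE 0.08, adjusted p 1.15e-11) (SD, n = 3). The 10 nearest tested genes on each side, which lay at most from -7.15 to 3.51 Mb away, had a median log2 change of 0.33 in clone 37, where 11 passed the test as higher and 3 as lower. Their median was -0.12 in clone 15, where 6 passed as higher and 9 as lower. As background, 26.7% of all tested genes passed as higher and 27.3% as lower in clone 37, and for clone 15 these shares were 25.1% and 26.2%. The sets of 20 differ slightly between comparisons, since other genes pass the filter on low counts. Some called higher, ANOS1 and ARHGAP6 in clone 37 and ARSL and ARHGAP6 in clone 15 among them, were low in parental cells and passed that filter through the clone where they were high, so the counts describe the genes tested and support nothing. For clone 37 against clone 15, 13 of 20 passed as higher and 3 as lower, against 28.7% of all tested genes higher and 57.7% called either way, with a median of 0.61, while SHROOM2 itself differed by 0.12. This set too holds genes that passed the filter through a single clone, such as PUDP, with 0 counts in clone 15, and ANOS1. Its count and median therefore support nothing. Single neighbours, named after their values were seen, differed more than SHROOM2. ANOS1, the Kallmann syndrome gene of the extracellular matrix, had 0.710 ± 0.452 CPM in parental cells, 0.269 ± 0.335 in clone 15 and 25.9 ± 2.31 in clone 37 (SD, n = 3). PUDP, a phosphatase gene, had 12.5 ± 0.636 CPM in parental cells and 12.9 ± 0.0878 in clone 37 (SD, n = 3), and 0 counts in clone 15. PNPLA4, a lipase gene, fell from 11.7 ± 0.565 to 0.959 ± 0.205 CPM in clone 15 (SD, n = 3), by 3.61 on the log2 scale (adjusted p 3.13e-13). The lowest change among the 20 in clone 37 was that of TMSB4X, an actin-sequestering thymosin, at -1.87.

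The nearest tested protein-coding genes on both sides of SHROOM4 differed less from parental cells than SHROOM4 did. CCNB3 (chrX:50202713-50351910), a cyclin of meiosis, was called in neither clone, and its values were 0.32 for clone 37 (adjusted p 0.179) and 0.37 for clone 15 (adjusted p 0.117), each with an SE of 0.19. NUDT10 (chrX:51332231-51337525), a nudix hydrolase of inositol phosphates, rose by 0.37 (SE 0.11, adjusted p 0.00929) in clone 37, while clone 15 gave -0.30 (SE 0.13, adjusted p 0.0550). Other genes share 10.5% of its 75-base words. The 10 nearest tested genes on each side, which lay at most from -1.52 to 2.51 Mb away, had a median change of 0.18 in clone 37, with 5 called higher and 4 lower, and of 0.00 in clone 15, with 2 called higher and 5 lower. Of all tested genes, 26.7% were higher and 27.3% lower for clone 37, and 25.1% and 26.2% for clone 15. The lowest change among the neighbours was -2.15 in clone 37 and -0.96 in clone 15. The highest in clone 15, and 1 of the 2 called higher there, was an unnamed gene with 0.304 CPM in parental cells and 1.58 in clone 15, which passed the filter only through clone 15.

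Around SHROOM1 the 10 nearest tested genes on each side, which lay at most from -0.507 to 1.16 Mb away, had median changes of 0.26 in clone 37 and 0.13 in clone 15, with 9 and 4 called higher and 0 and 1 called lower, where all tested genes gave 26.7% and 25.1% higher and 27.3% and 26.2% lower. Both higher counts include another unnamed gene, with 0.490 CPM in parental cells, 1.099 in clone 37 and 1.098 in clone 15. It passed the filter on low counts only through the clones, so these counts describe the genes tested and support nothing. The SHROOM1 neighbour SOWAHA (chr5:132813587-132816797), an ankyrin-repeat gene, rose by 0.63 (SE 0.12, adjusted p 0.000306) in clone 37, where SHROOM1 differed by -0.04. In clone 15 SOWAHA stood at 0.30 (SE 0.14, adjusted p 0.0670), where SHROOM1 differed by 0.74. GDF9 (chr5:132861181-132866884), an oocyte growth factor, was called in neither clone, at 0.68 (SE 0.28, adjusted p 0.0505) and -0.12 (SE 0.31, adjusted p 0.765). Around SHROOM3 the medians were 0.09 in clone 37 and -0.16 in clone 15, with 7 and 3 of its 20 neighbours, again 10 on each side, called higher and 2 and 8 lower, beside the same background. The 3 higher in clone 15 include SOWAHB and BMP2K-DT, which passed the filter on low counts only through clone 15. SHROOM3 thus lay on the opposite side of 0 from its neighbours' median in each clone. The nearest genes tested in clone 37, SCARB2, a lysosomal receptor, and SEPTIN11, a septin, were not called, at -0.13 (adjusted p 0.0737) and 0.02 (adjusted p 0.854). In clone 15 STBD1, a glycogen-binding protein, was not called (-0.15, adjusted p 0.795). SOWAHB had 0.970 ± 0.124 CPM in parental cells and 2.16 ± 0.159 in clone 15 (SD, n = 3). It passed the filter on low counts only where clone 15 was compared. No p-value is given for it, and its call, counted above, supports nothing.

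**Figure D3:**
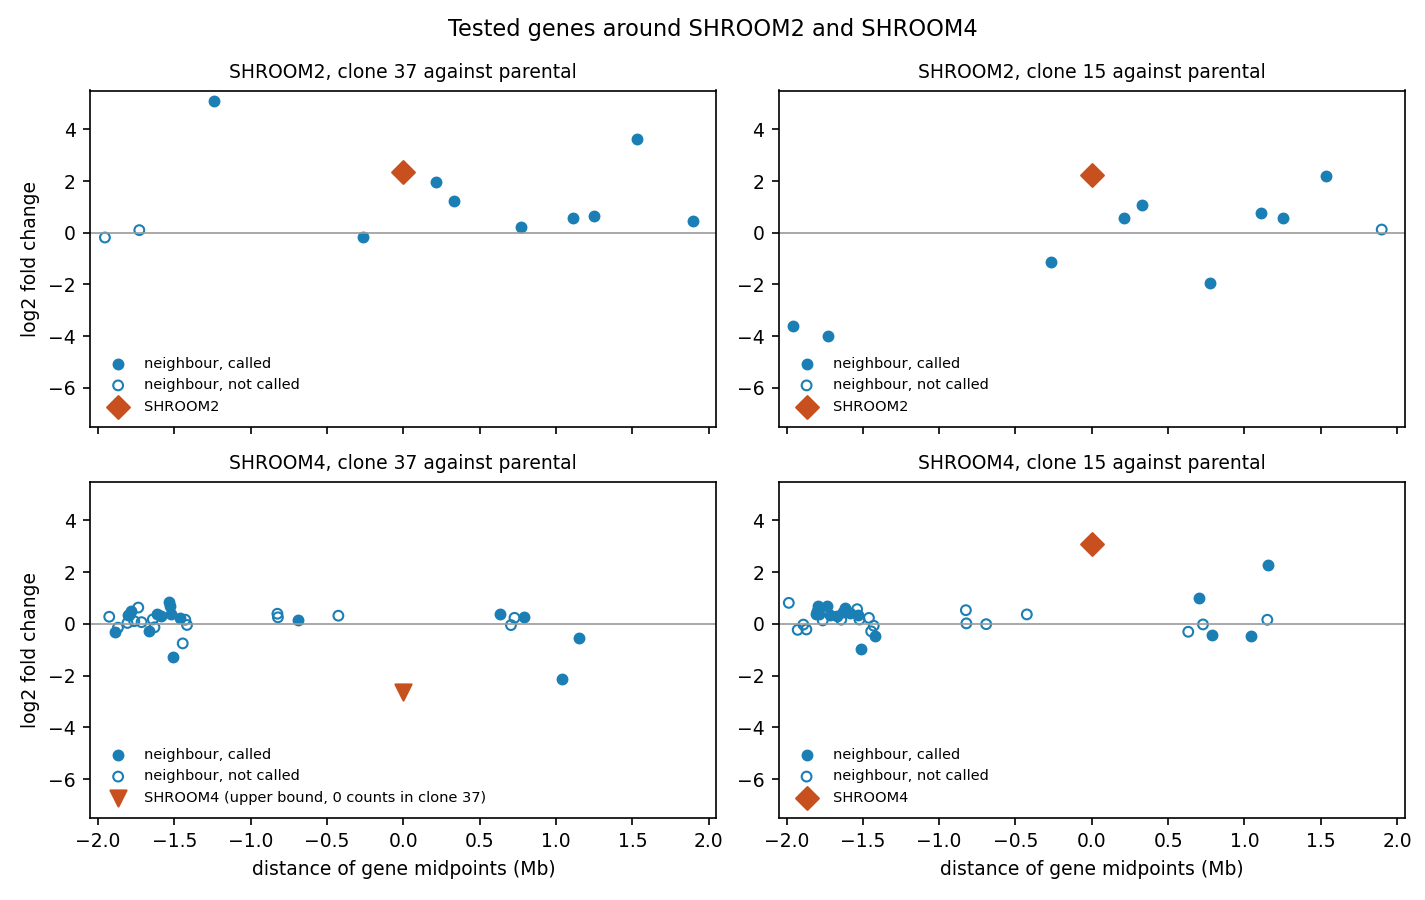
Log2 fold change against parental (vertical axis) of tested genes within 2 Mb of SHROOM2 (top) and SHROOM4 (bottom), by distance between gene midpoints in Mb, for clone 37 (left) and clone 15 (right). Filled points passed an adjusted p of 0.05, open points did not, and the diamond is the SHROOM gene; the triangle for SHROOM4 in clone 37 is an upper bound, since all 3 libraries had 0 counts. SHROOM4 at 3.07 in clone 15 lies above every neighbour shown. The filled points include genes that passed the filter on low counts through a clone where they were high, ARHGAP6 among them.

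The genes through which SHROOM proteins act were taken from a list of 76 genes in 5 groups, and 74 were tested in every comparison. MYL9, a myosin light chain, and CRB3, an apical polarity protein, had too few counts. By the quasi-likelihood test of edgeR, adjusted over all genes after Benjamini and Hochberg, 49 of 74 were called in clone 37, 12 higher and 37 lower, against 54.0% of all tested genes. The higher calls moved most between settings: there were 19 without parental replicate 2 (38 lower), 5 without parental replicate 3 (39 lower), 5 without clone 37 replicate 3 (32 lower), 6 without clone 37 replicate 1 (34 lower), 6 with unstranded counts (36 lower) and 7 with DESeq2 (35 lower). In clone 15, 37 of 74 were called, 20 higher and 17 lower, against 51.4% of all tested genes, or 23 higher and 18 lower without parental replicate 2. Between the clones 52 of 74 were called, 13 higher and 39 lower in clone 37, against 57.7%. The list's median log2 change was -0.18 for clone 37 and 0.01 for clone 15 against parental, and -0.17 for clone 37 against clone 15, where the medians of all tested genes were 0.02, 0.02 and -0.00. The excess of higher over lower calls in clone 15 turned with unstranded counts (13 higher, 20 lower), without parental replicate 1 (15 and 18) and without parental replicate 3 (13 and 18), and it vanished with all 9 libraries fitted together (21 and 21). The comparisons with parental share the same 3 parental libraries.

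ROCK2, one of the kinases that SHROOM proteins recruit, fell from 162 ± 5.96 CPM to 124 ± 1.98 in clone 37 and 105 ± 5.79 in clone 15 (SD, n = 3), which are log2 changes of -0.42 (SE 0.06, adjusted p 8.51e-06) and -0.66 (SE 0.08, adjusted p 2.31e-07). ROCK1, the other, fell from 205 ± 13.0 to 121 ± 5.53 CPM in clone 37 (SD, n = 3), a change of -0.79 (SE 0.06, adjusted p 1.78e-08), and stood at 184 ± 9.37 CPM in clone 15 (SD, n = 3), at -0.19 (SE 0.08, adjusted p 0.0662). Other genes share 9.54% of the 75-base words of ROCK1. ROCK1 was called in clone 15 with unstranded counts (-0.25), with all 9 libraries fitted together (-0.18), without parental replicate 1 (-0.25) and without parental replicate 3 (-0.24). The GTPase that switches both kinases on, RHOA, was called in neither clone, at -0.13 (adjusted p 0.144) in clone 37 and -0.07 (adjusted p 0.546) in clone 15. It was called in clone 37 without parental replicate 3 (-0.21). ARHGEF2, an exchange factor that activates RHOA, fell by 0.69 (adjusted p 5.07e-08) in clone 37 and by 0.48 (adjusted p 8.85e-06) in clone 15. ARHGEF1, another such factor, fell by 0.66 in clone 37 (adjusted p 2.72e-05) and stood at 0.03 in clone 15 (adjusted p 0.815). RND3, a small GTP-binding protein, fell by 0.72 in clone 15 (adjusted p 2.32e-06). Its call in clone 37 (-0.24, adjusted p 0.0296) was lost with DESeq2 (-0.25) and when clone 37 replicate 1 (-0.22) or 2 (-0.23) or parental replicate 1 (-0.20) was left out. RHOB, a stress-responsive relative of RHOA, fell by 0.51 in clone 15 (adjusted p 0.0157), a call lost without clone 15 replicate 1 (-0.45). In clone 37 it stood at 0.24 (adjusted p 0.135) and was called without parental replicate 2 (0.37), when low counts were not filtered (0.22) and in the fit with the replicate block (0.25).

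Of 9 tested genes of non-muscle myosin II and its regulators, 4 fell and 2 rose in clone 37, while in clone 15 1 fell and 3 rose. The shares called were 66.7% and 44.4%, where 54.0% and 51.4% of all tested genes were called. MYH9, a widely expressed heavy chain, was called in neither clone, at -0.08 (adjusted p 0.260) and 0.02 (adjusted p 0.852). MYH10, the heavy chain prominent in neural tissue, fell by 0.22 in clone 37 (adjusted p 0.00660), a call lost without clone 37 replicate 3 (-0.23), and stood at -0.15 in clone 15 (adjusted p 0.185). MYL6, the essential light chain, fell from 108 ± 9.20 to 89.3 ± 2.84 CPM in clone 37 and rose to 195 ± 7.55 CPM in clone 15 (SD, n = 3), changes of -0.30 (adjusted p 0.00156) and 0.83 (adjusted p 1.62e-08). MYLK, the kinase that phosphorylates the regulatory light chain, fell from 35.3 ± 0.0547 to 14.2 ± 1.23 CPM in clone 37 (SD, n = 3), a change of -1.34 (SE 0.09, adjusted p 1.40e-09). Its rise in clone 15 (0.23, adjusted p 0.0331) was lost with no filter on low counts (0.23), with unstranded counts (0.18) and without clone 15 replicate 3 (0.21), parental replicate 1 (0.20) or parental replicate 3 (0.20). PPP1CB, the catalytic subunit of myosin phosphatase, fell in both clones, with changes of -0.76 (adjusted p 1.65e-07) in clone 37 and -1.095 (adjusted p 1.80e-10) in clone 15. Other genes share 8.07% of its 75-base words.

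Of 15 genes of actin and actin-binding proteins, 7 fell and 3 rose in clone 37, while in clone 15 2 fell and 6 rose. The shares called were 66.7% and 53.3%, where 54.0% and 51.4% of all tested genes were called. LMO7, a junctional partner of afadin and alpha-actinin, fell from 46.8 ± 2.16 to 21.3 ± 1.31 CPM in clone 37 (SD, n = 3), a change of -1.16 (SE 0.08, adjusted p 2.15e-09). Its smaller fall in clone 15 (-0.23, adjusted p 0.0301) was lost in 6 of the alternatives, among them without clone 15 replicate 2 (-0.17) or 3 (-0.22) and without parental replicate 1 (-0.26) or 3 (-0.23). The shares of words found in other genes were 13.1% for LMO7, 5.11% for ACTN1 and 5.28% for TPM4. ACTN1, an actin crosslinker, fell by 0.63 in clone 37 (adjusted p 1.58e-07) and rose by 0.31 in clone 15 (adjusted p 0.00247). FLNA, a crosslinker of actin networks, rose from 861 ± 31.6 to 1676 ± 126 CPM in clone 15 (SD, n = 3), a change of 0.93 (SE 0.10, adjusted p 2.94e-08), and stood at 0.16 in clone 37 (adjusted p 0.0654), where it was called without parental replicate 2 (0.17). TPM4, a tropomyosin, fell by 0.41 in clone 15 (adjusted p 0.000224) and stood at 0.12 in clone 37 (adjusted p 0.113), where it was called without parental replicate 2 (0.17). ACTB, cytoplasmic beta-actin, fell by 0.22 in clone 37 (adjusted p 0.0291), a call lost with unstranded counts (-0.26), with the replicate block (-0.21) and without clone 37 replicate 1 (-0.24), 2 (-0.19) or 3 (-0.25). In clone 15 ACTB stood at 0.18 (adjusted p 0.166) and was called without parental replicate 2 (0.26).

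Of 19 tested genes of apical junctions and apical polarity, 10 fell and 2 rose in clone 37, while in clone 15 5 fell and 3 rose. The shares called were 63.2% and 42.1%, where 54.0% and 51.4% of all tested genes were called. CDH1, the epithelial cadherin, fell from 13.2 ± 0.958 CPM to 3.49 ± 0.218 in clone 37 and 4.17 ± 0.278 in clone 15 (SD, n = 3), changes of -1.93 (SE 0.15, adjusted p 9.81e-09) and -1.68 (SE 0.15, adjusted p 1.28e-09). CDH2, the neural cadherin, fell from 127 ± 9.48 to 68.5 ± 2.58 CPM in clone 37 (SD, n = 3), a change of -0.92 (SE 0.07, adjusted p 6.04e-09), and stood at -0.20 in clone 15 (adjusted p 0.0536). In clone 15 it was called with unstranded counts (-0.24), with all 9 libraries fitted together (-0.19), without parental replicate 1 (-0.24) and without parental replicate 3 (-0.27). PRKCZ, an atypical protein kinase C of the apical polarity complex, rose by 0.54 in clone 15 (adjusted p 3.44e-05) and stood at 0.00 in clone 37 (adjusted p 0.991).

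Of 14 planar cell polarity genes, 7 fell and 4 rose in clone 37, while in clone 15 3 fell and 3 rose. The shares called were 78.6% and 42.9%, where 54.0% and 51.4% of all tested genes were called. VANGL2, a core membrane protein of this pathway and needed for neural tube closure, fell from 86.3 ± 4.27 CPM to 41.5 ± 0.825 in clone 37 and 61.7 ± 3.23 in clone 15 (SD, n = 3), changes of -1.08 (SE 0.07, adjusted p 5.56e-10) and -0.51 (SE 0.08, adjusted p 1.02e-05). PRICKLE2, a cytoplasmic partner, fell by 1.12 in clone 37 (adjusted p 2.48e-06) and stood at 0.06 in clone 15 (adjusted p 0.708). FZD6, a frizzled receptor, rose by 0.51 in clone 37 (adjusted p 6.54e-06) and fell by 0.77 in clone 15 (adjusted p 9.13e-07). CELSR3, an atypical cadherin, fell by 0.88 in clone 15 (adjusted p 9.13e-07). Its rise in clone 37 (0.29, adjusted p 0.0329) was lost with DESeq2 (0.27), after thinning (0.25) and without clone 37 replicate 1 (0.30), 2 (0.26) or 3 (0.27) or parental replicate 2 (0.14) or 3 (0.27).

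**Figure D4:**
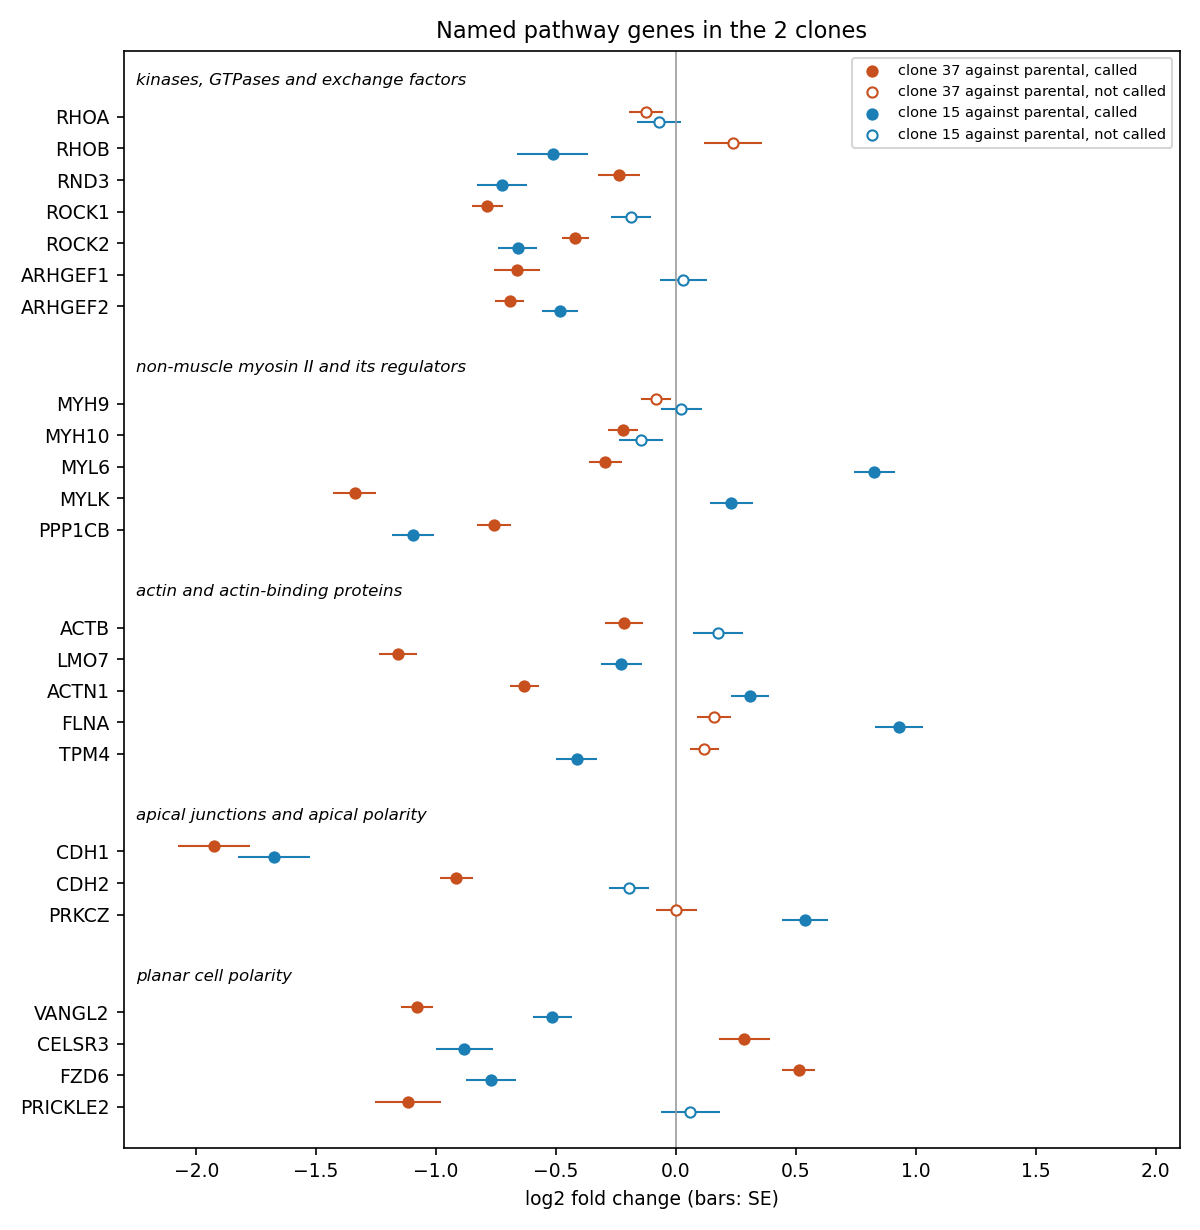
Log2 fold change against parental (horizontal axis) of the named pathway genes, by group, for clone 37 and clone 15; bars are SE. Filled points passed an adjusted p of 0.05 and open points did not. CDH1 lies at -1.93 and -1.68, and ROCK2 at -0.42 and -0.66, below 0 in both clones, while MYL6 and ACTN1 lie on opposite sides of 0.

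Genes whose pattern over the 9 libraries was most like that of each member were ranked by Pearson's r of log2(CPM + 0.5) among 13020 protein-coding genes with a mean of at least 1 CPM. The 9 libraries fall into 3 groups, so r mostly reads the order and spacing of 3 group means, and it is given as a description. For SHROOM2 the closest were PIGW, an enzyme of GPI anchor synthesis (r = 0.997), TAF4, a subunit of the general factor TFIID (0.992), and WDR74, a ribosome biogenesis factor (0.992). PIGW had 23.96 ± 0.893 CPM in parental cells, 38.9 ± 0.137 in clone 15 and 39.8 ± 1.496 in clone 37 (SD, n = 3), a smaller step than that of SHROOM2. For SHROOM4 the closest were LRPAP1, a chaperone of LDL receptor family proteins (0.998), NEFM, the medium neurofilament chain (0.998), and DLC1, a GTPase-activating protein for RHOA (0.994). The 0 counts of SHROOM4 in clone 37 enter at the pseudocount of 0.5, so the spacing of the groups, and with it these r values and ranks, depends on that choice. NEFM had 559 ± 79.2 CPM in parental cells, 2728 ± 82.3 in clone 15 and 137 ± 2.06 in clone 37 (SD, n = 3). DLC1 had 78.4 ± 0.756, 144 ± 2.68 and 52.5 ± 1.37 CPM in the same order (SD, n = 3). COL1A1, the one listed marker of another cell type above 0.290 CPM, also followed this order, with means of 34.4, 72.7 and 19.5 CPM, and its part in the SHROOM4 pattern was not tested.

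For SHROOM3 the closest patterns were those of IMPDH2, an enzyme of guanine nucleotide synthesis, GYG1, the glycogenin that primes glycogen, and NDUFB4, a respiratory complex I subunit (r = 0.986, 0.986 and 0.985). For SHROOM1 they were MFGE8, a milk fat globule protein, PHLDB1, a microtubule anchoring protein, and ZNF513, a zinc finger protein (r = 0.990, 0.986 and 0.977). MFGE8 had 82.6 ± 6.60 CPM in parental cells, 118 ± 8.57 in clone 15 and 84.5 ± 5.44 in clone 37 (SD, n = 3). Among the members themselves, r was 0.954 for SHROOM3 with SHROOM4, 0.883 for SHROOM1 with SHROOM3 and 0.834 for SHROOM1 with SHROOM4, those with SHROOM4 resting on the same pseudocount. SHROOM2 had r of 0.418, 0.187 and 0.0380 with SHROOM1, SHROOM3 and SHROOM4.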

How the data were processed

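Total RNA of 9 HEK293T libraries, 3 per group, was depleted of ribosomal RNA, made into directional libraries from 500 ng of RNA with 13 cycles of amplification and read as paired ends, per the labels' protocols. The authors deposited a table for each library with unnormalized read counts by gene, in the layout that STAR writes. STAR 2.7.10a, FastQC 0.11.9 and the build hg38 are named in the submitters' processing notes; the annotation release, trimming and filters are not given in the sources used here. The counts of the transcript strand (column 4) were taken, since they made up 92.6% to 94.0% of the stranded counts. Its 4 summary entries name no gene and were left out of totals.

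Of 60683 gene identifiers, 60370 had a symbol and 58496 a position in GENCODE 29. CPM uses the total of gene counts. Each pair of groups was fitted on its 6 libraries with edgeR 4.0.16 (filterByExpr, TMM, glmQLFit with robust estimation, glmQLFTest) in R 4.3.3. Genes were called at a Benjamini-Hochberg adjusted p under 0.05 over all genes tested. SE is the log2 fold change over the square root of F. The fits were tested on simulated data. DESeq2 1.42.0 was an alternative. Python 3.11.15 made the tables and figures.

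The members and gene lists were chosen with earlier results of these data known. Named were the SHROOM genes, ROCK1, ROCK2, RHOA, MYH9, MYH10 and ACTB, the 2 largest called changes per pathway group and comparison at a mean of at least 5 CPM, the nearest tested protein-coding gene on each side of a member and the 3 most alike patterns. Some listed markers and the count of one pathway group are not reported here. Same-numbered replicates were not paired, and no replicate pair of a group agreed within counting noise.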

Additional observations from a re-analysis of the deposited data

Results flagged for a closer look

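SHROOM4 was marked because every clone 15 library, with a mean of 14.4 CPM, lay above every parental library while every clone 37 library, at 0 counts, lay below them; this difference was not tested, since the gene was chosen for it. Of the named pathway genes, 5 were marked because they were called in opposite directions in the 2 clones, and edgeR also called them between the clones. In the whole list, 3 genes were called higher in clone 37 and lower in clone 15, and 6 the reverse. Another 5 were called higher and 12 lower in both clones. The log2 fold change of clone 37 over clone 15 was -0.94 for ACTN1, -1.12 for MYL6 and -1.57 for MYLK. It was 1.17 for CELSR3 and 1.28 for FZD6. Since opposite calls against the same parental libraries chose these genes, the difference between the clones is a description. The clone 15 call of MYLK and the clone 37 call of CELSR3 were lost under several alternatives given above.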

How the results depend on the processing

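Taking the median change of the 10 nearest tested genes on each side as the reference moved SHROOM2 in clone 37 to 2.03 and SHROOM3 to -0.23 in clone 37 and 0.42 in clone 15, and the SHROOM3 difference between them to -0.72. It turned the sign of the SHROOM2 difference between the clones, from 0.12 to -0.49, which follows from the 0.61 median of its neighbours. That median includes genes, PUDP and ANOS1 among them, that passed the filter on low counts through a single clone. Thinning all libraries to the smallest total moved the bound for SHROOM4 between the clones to -5.50, from -5.74; the cause was not tested. That bound uses no fit, so the normalization, test, filter and block alternatives do not apply to it. Of 168 alternative values of the members, 162 moved by less than 1 SD of the libraries, and the 6 exceptions are those just given. All 42 alternative counts of called pathway genes stayed within 1.5 times of the main ones; leaving out 1 library gave 37 to 57 for clone 37 and 31 to 41 for clone 15 against parental, and 46 to 56 for clone 37 against clone 15. Of 1008 alternative values of named pathway genes, 960 kept their call, 29 lost it and 19 gained one. With the replicate number as a block, 47, 35 and 55 pathway genes were called in place of 49, 37 and 52; of the named genes only RHOB gained and ACTB lost a call, both in clone 37. Same-numbered libraries correlated at -0.16 to 0.02 in their deviations from the group means, so the numbers mark no pairing seen here. Low counts limit SHROOM4 in parental cells, where it rests on 63 counts.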

Other observations

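A few further genes near SHROOM2 and SHROOM4 on the X chromosome lay outside the lists and were chosen after their values were seen. ARHGAP6, which encodes a GTPase-activating protein for RHOA and is X-linked within 2 Mb of SHROOM2 (chrX:11137543-11665701), had 0.320 ± 0.0782 CPM in parental cells, 4.07 ± 0.359 in clone 37 and 1.52 ± 0.305 in clone 15 (SD, n = 3). Its parental level is so low that it passed the filter on low counts through the clones. No p-value is given for it, and its calls, counted above among the neighbours of SHROOM2, support nothing. CLCN4, a chloride and proton exchanger between SHROOM2 and ARHGAP6, rose in both clones, by 1.23 on the log2 scale by edgeR (SE 0.17, adjusted p 1.17e-05) and 1.06 (SE 0.18, adjusted p 2.69e-05). MID1, a microtubule-associated ubiquitin ligase in the same interval, rose by 0.21 (SE 0.06, adjusted p 0.00433) in clone 37 and fell by 1.96 (SE 0.08, adjusted p 1.96e-16) in clone 15. On the far side of SHROOM4, GSPT2, a translation termination factor, fell from 11.6 ± 1.59 to 2.66 ± 0.293 CPM in clone 37 (SD, n = 3), a change of -2.15 (SE 0.18, adjusted p 1.98e-08), and by 0.46 (SE 0.15, adjusted p 0.0141) in clone 15.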
